A study of Mus musculus with 10 samples.

Results

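The comparison set methionine against arginine at a single lysine of Elongin A, K754, in mouse embryonic stem (ES) cells. It used 4 of the series' 10 samples: 2 libraries of cells labelled as edited to EloAK754M and 2 of cells labelled as edited to EloAK754R, taken by their column names in the deposited table of intronic RPKM. RPKM is reads per kilobase of intron, scaled to the reads of the library, so intronic RPKM follows unspliced, newly made RNA. Of 24901 genes in the table, 15161 had a mean of at least 0.1 RPKM over the 6 single-library columns of Elongin A cells and were tested, 14207 of them on autosomes, 530 on the X and 6 on the Y chromosome. Both mutants carry the label CJ7 for their line. The labels do not give the number of clones behind each mutant or the way of editing, so the substitution and the clone cannot be told apart. All cells were grown with leukaemia inhibitory factor, 1 µM of the MEK inhibitor PD0325901 and 3 µM of the GSK3 inhibitor CHIR99021, and took up 2 mM bromouridine (BrU) for 10 min before lysis. Of the protocols in the labels, one has fibroblast feeders that were removed before use and the other has feeder-free plates. The 2 libraries of cells with unedited Elongin A (EloA WT), whose line label is CCE28, entered only through the shared spread. Their levels and the authors' average of 2 CJ7 wild-type libraries are given beside the mutants'. Nothing in the labels says that libraries came from separate cultures, so the p-values measure the spread between these libraries, which may be technical.

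Elongin A is the large subunit of Elongin, a complex with Elongins B and C that stimulates elongation by RNA polymerase II, and it also serves as a substrate receptor of a ubiquitin ligase. Polycomb Repressive Complex 2 (PRC2) is best known as the methyltransferase that marks lysine 27 of histone H3 at silent developmental genes, and the title of the series names Elongin A as one of its substrates. Arginine keeps the positive charge of lysine, whereas methionine is uncharged, and neither can be methylated by a lysine methyltransferase.

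The codon is shown first because the 2 mutants are labelled as differing at it. Tceb3, the older symbol of Eloa and the one in the files, lies on the minus strand of chromosome 4. In the GENCODE M21 transcript (GRCm38) K754 lies near the end of a protein of 773 residues, and its AAA codon is split by the last intron, with 1 base at the end of exon 10 of 11 and 2 bases at the start of exon 11. The reference coding sequence is given with 10 codons on either side, and the codon is in capitals. Its exon 10 part lies at chr4:136006171-136006201 and its exon 11 part at chr4:136005646-136005677.
Eloa codon of K754 and flanks: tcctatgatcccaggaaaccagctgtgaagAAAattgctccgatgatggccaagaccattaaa
From AAA an arginine codon can be reached with 1 base change and the methionine codon needs at least 2. The labels do not give the bases in the edited cells.

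The table keeps the whole reads behind its values, so depth could be recovered: 27120518 and 28000991 intronic reads in the K754M libraries and 29958246 and 40184972 in the K754R libraries. K754M replicate 2 stood apart at low levels. The lower quartile of all genes was 0.110 RPKM there, against 0.0139 in K754M replicate 1 and 0.0153 and 0.0498 in K754R replicates 1 and 2. Genes with a mean of 0.1 to 0.2 RPKM therefore gave medians of 0.39 and 0.32 (log2) for K754M replicate 2 against the K754R libraries, but 0.02 and -0.02 for replicate 1. Intronic Tceb3 itself was 1.46 and 1.98 RPKM in K754M and 1.12 and 1.30 in K754R, with EloA WT at 1.83 and 2.03 RPKM, and the mutants did not overlap. Its difference was 0.46 ± 0.18 (log2, SE) and did not pass (adjusted p = 0.254). Substitutions of 1 codon cannot be read from intronic values, so these levels do not check the labels. ES cell markers were detected throughout, with 7 of 8 found in the table and summing to 190 and 338 RPKM in K754M and 173 and 193 in K754R. Among them Dppa5a was 55.1 and 176 RPKM in K754M and 55.8 and 66.8 in K754R, so it weighs heavily in the sums. The 10 fibroblast markers summed to 15.0 and 14.2 against 17.5 and 16.3 RPKM, and none was at 0. The 5 trophectoderm markers summed to 1.79 and 1.81 against 2.42 and 2.34 RPKM, with Cdx2 at 0 in K754M replicate 1. Members differed in direction. Tfap2c was lower in K754M, at 1.08 and 0.989 against 2.13 and 1.92 RPKM. Krt8 was higher, at 0.442 and 0.454 against 0.211 and 0.134, as was Krt18, at 0.253 and 0.247 against 0.0255 and 0.0762. The 5 primitive endoderm markers summed to 0.402 and 0.939 against 0.399 and 0.544 RPKM, with Sox17 at 0 in replicate 1 of both mutants and Dab2 at 0 in K754R replicate 1. The part of these cells in the results was not tested.

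With 2 libraries a side, few autosomal genes were called between the substitutions, which does not show that the others are equal. A gene was called when limma's test on log2(RPKM + 0.1), fitted over the 6 libraries, gave a Benjamini-Hochberg adjusted p under 0.05 over all tested genes. Of 14207 autosomal genes 28 were called (0.197%), of which 16 were higher in K754M (0.113%) and 12 were lower (0.0845%). Over all genes 44 were called (0.29%), 17 higher in K754M (0.112%) and 27 lower (0.178%). Without adjustment, p was under 0.05 for 2806 genes (18.5%). Deviations of libraries with the same replicate number correlated weakly, at 0.15 to 0.20, and the labels do not say that these numbers pair the libraries. With the replicate number as a block the same test called 355 genes (2.34%), among them all 44. Blocked calls rest on that unsettled pairing. The blocked calls on autosomes were 301 (2.12%), with 186 higher (1.31%) and 115 lower (0.809%). The split of blocked calls depended on scaling: 201 higher (1.33%) and 154 lower (1.02%) over all genes became 206 and 274 once libraries were set to the same autosomal median. In all, both K754M libraries lay above both K754R libraries for 4835 genes (31.9%) and below them for 2824 (18.6%). On autosomes these shares were 32.7% and 17.7%. The voom method on recovered reads called 443 genes (2.92%), 204 higher (1.35%) and 239 lower (1.58%), and on autosomes 376 (2.65%), 194 higher (1.37%) and 182 lower (1.28%).

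Many of these calls rest on very few reads. Only 6 of the 17 genes called higher and 19 of the 27 called lower had 20 or more reads in the higher group. A gene model that shares the symbol Tob2 with another row of the table had 2 reads in K754M and 0 in K754R, and Rassf10, a Ras-association domain gene, had 0 and 5 reads. The gene model Gm9987, at 41.1 and 15.3 RPKM in K754R and 0 in both K754M libraries, rests on 3 reads in all. These 3 were picked after their values were seen. The counts depended on single libraries. Without K754M replicate 1, 53 genes were higher and 9 lower, and 13 of the 44 calls remained. Without K754M replicate 2 the counts were 10 and 1, without K754R replicate 1 they were 1 and 4, and without K754R replicate 2 they were 2 and 3, with 1 of the 44 calls remaining each time. Without EloA WT replicate 1 or 2 they were 8 and 10, or 10 and 11. All 44 kept their direction each time. This was fixed in advance, since the K754M and K754R libraries did not overlap for any of them.

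Sncg, which codes for gamma-synuclein, had the smallest adjusted p among the named autosomal genes. It stood at 0.833 and 0.903 RPKM in K754M, 5.52 and 5.76 in K754R, 5.71 and 7.05 in EloA WT and 4.44 in the CJ7 average. The K754M libraries were thus the low ones, below K754R and both wild types. The difference was -2.57 ± 0.14 (log2, SE, adjusted p = 0.00829), and 95 reads in K754M compare with 787 in K754R. Its neighbour in gene order, Fam25c, was 1.60 and 1.28 RPKM in K754M against 3.63 and 3.35 in K754R, and it was called with the block only (-1.23, adjusted p = 0.0460, and 0.0573 without it). Whether reads of these neighbours overlap was not tested.

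Hunk, a kinase of the AMPK-related family, was 0.425 RPKM in both K754M libraries and 1.48 and 1.49 in K754R. EloA WT lay between the mutants at 0.687 and 0.827, and CJ7 was at 1.42. It fell by 1.60 on the log2 scale (adjusted p = 0.0283). Sox13, a SoxD transcription factor, was 1.20 and 0.901 RPKM in K754M against 3.05 and 3.09 in K754R (-1.48, adjusted p = 0.0474). For Sox13 the wild types, at 1.57, 1.48 and 1.5, were nearer to K754M, so K754R was the high side. Hnrpll, a splicing regulator, was 2.17 and 1.99 against 4.40 and 4.79 RPKM (-1.11, adjusted p = 0.0496). Lrpprc, which stabilises mitochondrial mRNAs, was 2.37 and 2.12 against 4.55 and 5.00 RPKM (-1.06, adjusted p = 0.0496).

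Rab19, a small GTPase of vesicle traffic, had the larger change of the 2 genes with a proper name that met the naming rule as called higher on autosomes, the other being Masp2. The gene models Gm13128 (1.97, adjusted p = 0.0496) and Gm7325 (1.90, adjusted p = 0.0149), which the rule passes over, had larger ones on at least 20 reads. Larger changes were also called on fewer reads, such as that of Gm10080 (9.31, on 6 reads in K754M). Rab19 was 0.911 and 1.01 RPKM in K754M and 0.242 and 0.253 in K754R. EloA WT, at 0.33 and 0.31, lay near K754R, and CJ7, at 0.759, near K754M. The difference was 1.61 ± 0.16 (log2, SE, adjusted p = 0.0407). Masp2, a protease of the complement lectin pathway, was 3.68 and 3.08 against 1.45 and 1.49 RPKM (1.15 ± 0.13, adjusted p = 0.0496). EloA WT, at 3.91 and 3.74, lay with K754M, and CJ7, at 2.21, lay between the mutants.

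Several genes just missed the threshold and were called with the block. Ttn, the giant sarcomere protein, was 1.10 and 1.03 RPKM in K754M against 0.355 and 0.395 in K754R (1.30, adjusted p = 0.0506, blocked 0.0401). Ssu72, a phosphatase of the RNA polymerase II tail, was 4.08 and 4.04 against 1.88 and 2.13 RPKM (0.98, adjusted p = 0.0524, blocked 0.0401). Mt1, a metallothionein, was 9.66 and 11.7 against 3.94 and 3.04 RPKM (1.59, adjusted p = 0.0533, blocked 0.0401). In none of these did the groups overlap. Prex2, a Rac exchange factor, was 2.43 and 2.58 against 0.759 and 0.880 RPKM on 44711 and 18798 reads, which makes it one of the better measured genes (1.5, adjusted p = 0.0636, blocked 0.0401). Prex2 was picked after its values were seen.

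Lefty2 and Lefty1 lie close together on chromosome 1, and both were called lower in K754M with the block only. Lefty1 and Lefty2 code for secreted inhibitors of Nodal signalling and are themselves Nodal targets. Lefty2 was 0.501 and 0.391 RPKM in K754M and 6.79 and 2.95 in K754R, with EloA WT at 1.85 and 1.59 and CJ7 at 1.73. The wild types lay between the mutants. Its difference was -3.08 ± 0.38 (log2, SE, adjusted p = 0.0533, blocked 0.0401). Lefty1 was 0.376 and 0.245 against 3.91 and 1.13 RPKM (-2.46, adjusted p = 0.121, blocked 0.0460). The K754R replicates differed widely for both Lefty genes. Lefty1 was named after its values were seen, for its place near Lefty2.

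**Figure D1:**
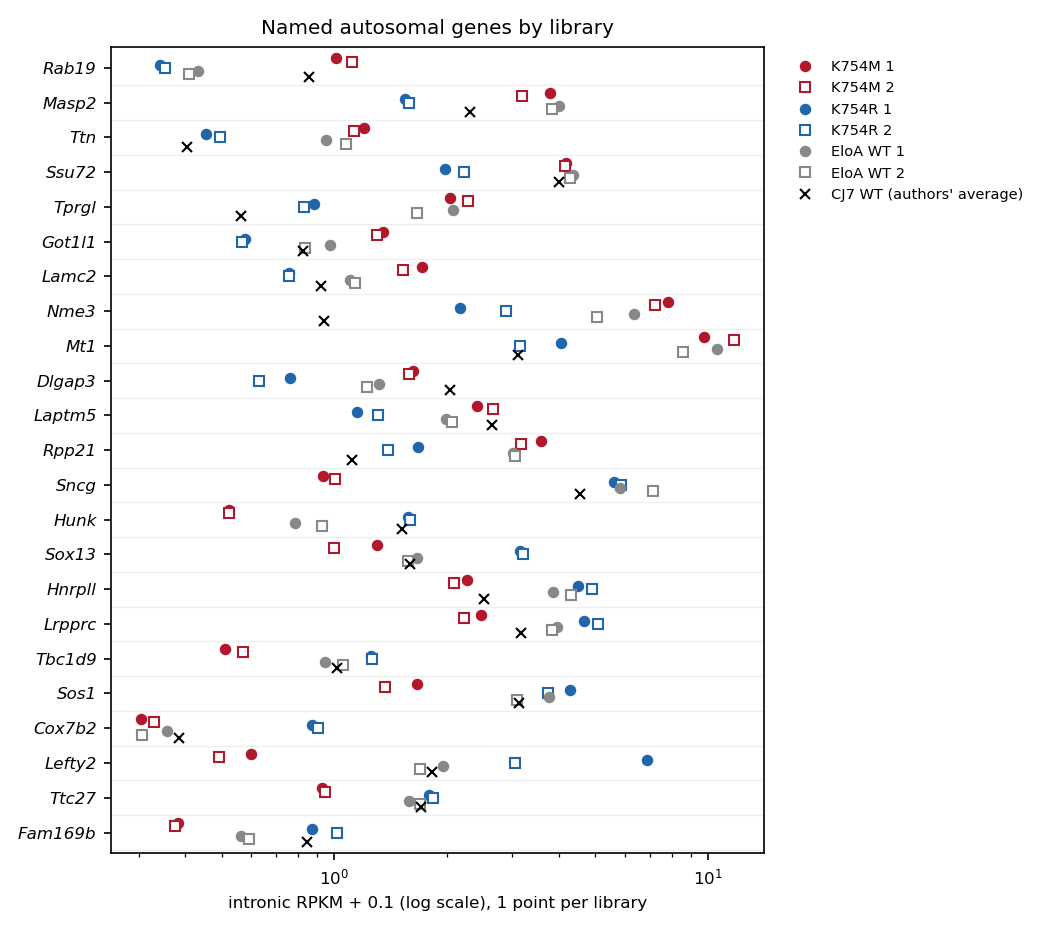
Intronic RPKM + 0.1 (log axis) of autosomal genes chosen by the naming rule, 12 higher and 11 lower in K754M, with 1 point for each library and a cross for the authors' CJ7 average. Red and blue points do not overlap in any row. Grey points (EloA WT) lie beside blue for Sncg and beside red for Masp2 and Ssu72.

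The differences were not spread evenly over the genome. Chromosome medians of the difference were 0.05 to 0.19 (log2) on most autosomes, but 0.30 on chromosome 4, -0.30 on chromosome 14 and -0.11 on chromosome 1. These signs held in all 4 pairings of a K754M with a K754R library: chromosome 4 gave 0.26 to 0.32, chromosome 14 gave -0.32 to -0.27 and chromosome 1 gave -0.20 to -0.05. Genes of a chromosome are not replicates, so these medians carry no test.

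**Figure D2:**
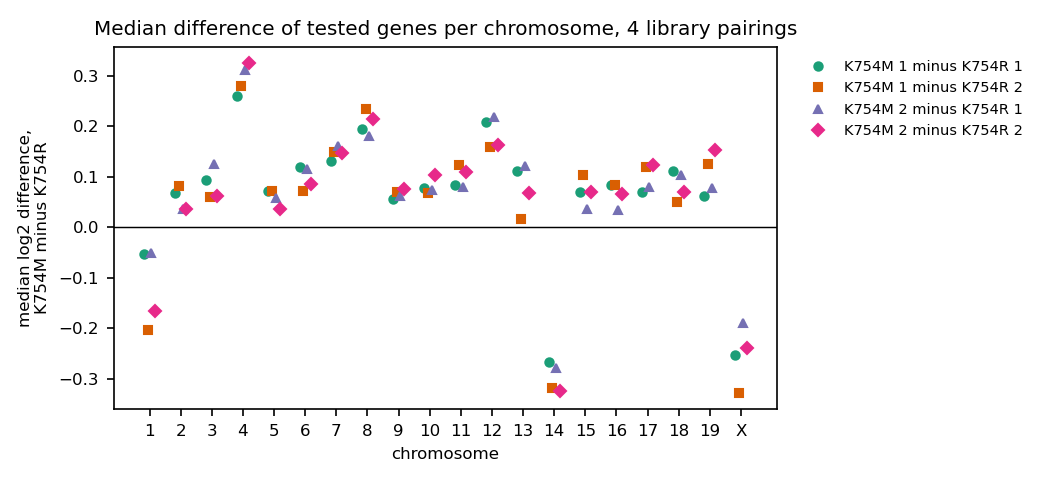
Median log2 difference (K754M minus K754R) over the tested genes of each chromosome, 1 symbol per pairing of libraries. Chromosome 4 lies between 0.26 and 0.32 and chromosome 14 between -0.32 and -0.27 in every pairing, whereas the Y chromosome, at -2.25, is off this scale and not drawn.

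On chromosomes 4, 14 and 17 the shift lay in long runs of neighbouring genes, whereas on chromosome 1 all 5 equal parts of the gene order were shifted, with medians of -0.19 to -0.07. A run was marked, by a rule chosen after seeing the data, where the median over 41 neighbouring tested genes lay at least 0.25 (log2) from the autosomal median of 0.09 at 41 or more consecutive genes. Shorter runs were not marked, and a run that reached the last full window was extended to the end of the chromosome. On chromosome 4 the runs began at Zfp691 and reached the last tested gene, Plekhn1. The first, Zfp691 to Mrto4, held 280 genes with a median difference of 0.55, a 1.46-fold level, and 92.5% of its genes were positive against 61.7% of autosomal genes. The second, Ubr4 to Plekhn1, held 221 genes with a median of 0.48 and 92.3% positive. Both K754M libraries lay above both K754R libraries for 78.9% and 70.6% of these genes. High shares are built in, since the runs were marked from the same differences. Tceb3, the edited gene, is gene 757 of the 1019 ordered on chromosome 4 and lies inside the first run, and its own difference of 0.46 was near that run's median. Masp2, Ssu72, Tprgl, Dlgap3 and Laptm5 also lie in these runs.

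Relative to the autosomal level of its own library, the first run of chromosome 4 stood at -0.29 and -0.32 (log2) in the K754R libraries. It stood at 0.18 and 0.14 in K754M, 0.11 and 0.17 in EloA WT and 0.32 in the CJ7 average. K754R was therefore the side that stood apart from the other libraries there.

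Distal chromosome 17 showed the reverse. The run from Clip4 to 2610044O15Rik, the last ordered gene, held 81 genes with a median difference of -0.66, a 1.58-fold lower level in K754M, and 86.4% were negative. It stood at -0.46 and -0.49 in K754M, 0.23 and 0.25 in K754R, 0.23 and 0.14 in EloA WT and 0.31 in CJ7, so that here K754M stood apart. Hnrpll, Lrpprc, Sos1 and Ttc27 belong to it. Sos1, the exchange factor that activates Ras, was 1.57 and 1.27 RPKM against 4.18 and 3.64 (-1.41, adjusted p = 0.0524, blocked 0.0321). Of the 23 blocked lower calls on chromosome 17, 21 lie in this run, which was itself marked from the same differences.

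On chromosome 14 a pair of runs, Anxa7 to Atg14 with 158 genes and Khnyn to Nalcn with 204, had medians of -0.35 and -0.37. K754R stood at 0.32 and 0.31 in the first and 0.29 and 0.32 in the second, against -0.16 to -0.10 in K754M, -0.22 to -0.11 in EloA WT and 0.09 in CJ7. Sncg and Fam25c lie in the first run, where Sncg's difference was far beyond the run's median. The end of chromosome 1, from Fam36a to Cr1l, held 86 genes with a median of -0.27 and contains Lefty2 and Lefty1. A run on chromosome 11, Sox15 to Pld2, held 44 genes with a median of 0.41. The autosomal runs together hold 7.56% of tested autosomal genes, 62 of the 186 blocked higher calls (33.3%) and 42 of the 115 blocked lower calls (36.5%). Of the unblocked calls, 4 of 16 and 4 of 12 lie there. The runs were marked from the same differences as the calls, so an excess of calls in them is built in. DNA copy number was not measured in these data, and its part in these runs was not tested.

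**Figure D3:**
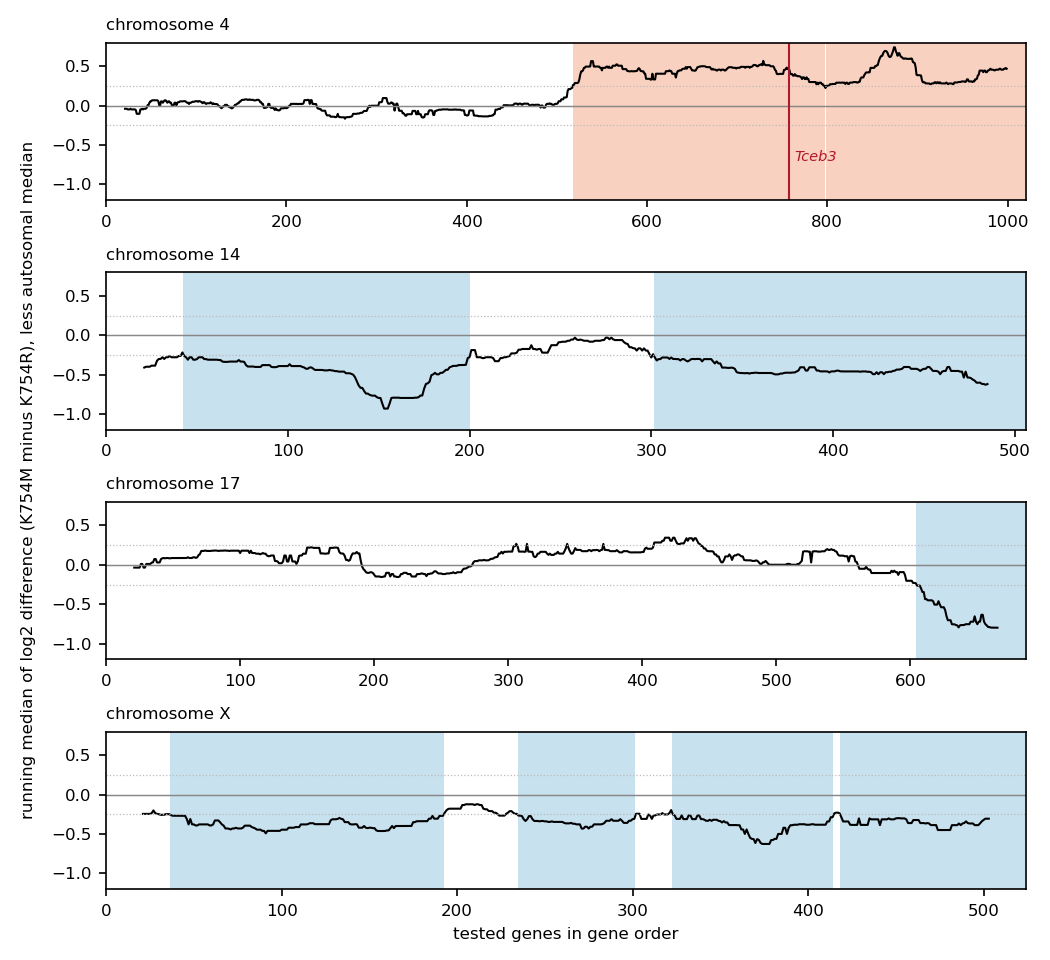
Running median of the log2 difference over 41 neighbouring tested genes, less the autosomal median, along chromosomes 4, 14, 17 and X in gene order. Orange marks runs higher in K754M, blue marks runs lower in K754M, dotted lines mark 0.25 either way, and the red line marks Tceb3. The shift on chromosome 4 starts near gene 518 and the one on chromosome 17 near gene 605, and both run to the chromosome's last tested gene.

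The X chromosome was lower in K754M than in K754R as a whole and held a set of genes with large differences. Of 530 X-linked genes, 11 fell (2.08%) and 0 rose. With the block 32 were called (6.04%), of which 31 fell (5.85%) and 1 rose (0.189%), and voom called 49 (9.25%), all lower. Both K754M libraries lay above both K754R libraries for 49 X-linked genes (9.25%) and below them for 260 (49.1%). The X median was -0.24, 159 X-linked genes had an unadjusted p under 0.05 (30.0%), and 74.0% of X-linked genes were negative against 38.2% of autosomal genes. On the gene-centred scale of the runs, the X less the autosomes was -0.14 and -0.07 in K754M and 0.22 and 0.28 in K754R. It was -0.24 and -0.14 in EloA WT and 0.08 in CJ7 (all log2). Centring removes each gene's own level, so these are not ratios of X to autosomes. An exact two-sided permutation test of 2 against 2 libraries gave p = 0.33, the smallest it allows.

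Usp26, a testis-expressed deubiquitinase, changed most among the X-linked genes with a proper name, and the gene model Gm6215 had a similar change (-3.46, adjusted p = 0.0110). Usp26 was 0.138 and 0.160 RPKM in K754M, 2.91 and 2.30 in K754R, 0.641 and 0.415 in EloA WT and 2.41 in CJ7. The fall of 3.43 on the log2 scale (SE 0.23, adjusted p = 0.0110) thus set K754M below both wild types, and K754R was close to CJ7. Scml2, a Polycomb-type MBT protein of the male germ line, was 0.415 and 0.302 against 3.25 and 3.19 RPKM (-2.87 ± 0.27, adjusted p = 0.0294), with EloA WT at 0.891 and 0.501 and CJ7 at 1.38. Scml2 was well measured, with 2881 reads in K754M and 32922 in K754R. Here the wild types lay between the mutants.

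The MAGE family genes, known as cancer-testis antigens, followed another order. Magea10 was 0.150 and 0.146 RPKM in K754M against 1.25 and 1.60 in K754R, with EloA WT at 0.311 and 0.387 and CJ7 at 0.164 (-2.61 ± 0.19, adjusted p = 0.0149). Magea8 fell by 2.33 on the log2 scale (adjusted p = 0.0496) and Magea5 by 1.99 (adjusted p = 0.0416). In all 3 the wild types were nearer to K754M, and K754R was the high side. Rragb, a Rag GTPase that signals amino acids to mTORC1, was 0.290 and 0.352 against 1.17 and 1.26 RPKM, and EloA WT was 0.290 and 0.322 (-1.64 ± 0.16, adjusted p = 0.0410). Of the 10 X-linked calls with at least 20 reads, EloA WT was nearer to K754M in 10 and CJ7 in 8. For comparison, of all 393 tested X-linked genes that were not higher in K754M, EloA WT was nearer to K754M in 284 and CJ7 in 229. MAGE and Xlr genes belong to families of related copies, and whether the counting split reads between copies was not tested.

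Pramel3, a PRAME-like gene of the germ line, and the gene model Gm7903 were both called, and their promoters are shown because they are near-identical. Reads of such copies may not be told apart. Pramel3 was 0.0408 and 0.129 RPKM in K754M and 1.03 and 1.24 in K754R (-2.77 ± 0.29, adjusted p = 0.0432). Gm7903 was 0.0107 and 0.0105 against 0.468 and 0.517 RPKM, on 2 and 119 reads (-2.42, adjusted p = 0.0452). RefSeq promoters (GRCm38.p6, from 250 bases before to 50 after the start) exist for 8 of the 11 X-linked calls, and the longest run of identical bases shared by this pair, in capitals, is 109 bases. They lie at chrX:135302066-135302365 and chrX:135433585-135433884, both on the plus strand.
Pramel3 promoter: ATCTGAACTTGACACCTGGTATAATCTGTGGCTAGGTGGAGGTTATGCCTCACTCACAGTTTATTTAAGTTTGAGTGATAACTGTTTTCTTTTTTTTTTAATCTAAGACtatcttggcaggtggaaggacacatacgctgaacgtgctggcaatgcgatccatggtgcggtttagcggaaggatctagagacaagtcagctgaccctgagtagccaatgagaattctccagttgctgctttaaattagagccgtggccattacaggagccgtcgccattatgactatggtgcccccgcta
Gm7903 promoter: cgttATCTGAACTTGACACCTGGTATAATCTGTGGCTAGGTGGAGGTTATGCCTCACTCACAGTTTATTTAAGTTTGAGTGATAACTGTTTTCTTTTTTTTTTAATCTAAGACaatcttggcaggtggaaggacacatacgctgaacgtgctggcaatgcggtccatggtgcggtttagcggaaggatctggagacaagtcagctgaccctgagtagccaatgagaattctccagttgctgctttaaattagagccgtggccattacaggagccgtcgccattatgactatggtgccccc
Aligned without gaps, 293 of 296 bases are identical (99.0%). Over the other pairs of these 8 promoters the longest shared run was 12 bases, between Magea10 and Magea8. Among these 8 promoters no other pair shared a longer run.

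All 6 tested Y-linked genes were lower in both K754M libraries than in both K754R libraries, with a median difference of -2.25 (log2). Eif2s3y, which codes for a translation initiation factor subunit, was 0.509 and 0.421 RPKM in K754M and 2.75 and 3.13 in K754R, with EloA WT at 3.19 and 4.23 and CJ7 at 0.930. It fell by 2.43 on the log2 scale (SE 0.18, adjusted p = 0.0149). Ube1y1, a ubiquitin-activating enzyme gene, was 0.0189 and 0.0461 against 0.999 and 1.07 RPKM (-3.10, adjusted p = 0.0294). Zfy1, a zinc finger factor, was 0.0166 and 0.0258 against 0.443 and 0.50 RPKM (-2.24, adjusted p = 0.0416). K754M was below K754R and both wild types for each of the 3. The demethylase genes Kdm5d and Uty and the helicase gene Ddx3y had adjusted p-values of 0.0533, 0.0699 and 0.0831, and with the block all 6 Y-linked genes were called. Fewer cells that carry a Y and less RNA per cell cannot be told apart in bulk RNA. Xist, the RNA that silences one X in female cells, was 14.5 and 17.6 RPKM in K754M and 16.9 and 19.1 in K754R (-0.17, adjusted p = 0.723). The processing notes name no strand handling, so these values may include antisense reads and do not give the level of Xist RNA.

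**Figure D4:**
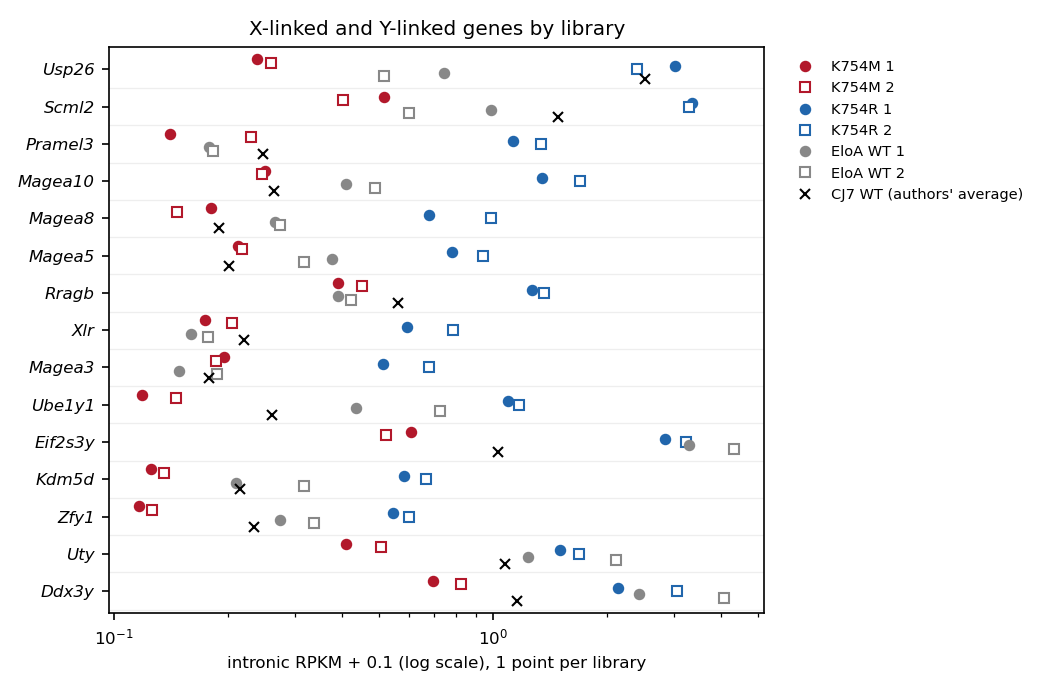
Intronic RPKM + 0.1 (log axis) of 9 X-linked and 6 Y-linked genes, 1 point per library and a cross for the authors' CJ7 average. Red K754M points lie left of the blue K754R points in every row. Grey EloA WT points lie near red for Rragb, Xlr and Magea3, and near blue or beyond for Eif2s3y, Uty and Ddx3y.

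Of 39 X-linked germline and cancer-testis genes listed, 25 were tested. Of these, 6 fell and 8 fell with the block, beside 2.08% and 5.85% of X-linked genes in that direction. Their median was -1.19 (log2), and 20 of 25 were lower in both K754M libraries than in both K754R libraries, against 49.1% of X-linked genes. Of the 14 others, 7 were in the table and under the level limit, and a member that passed only through its level in K754R had to differ, so these counts are a description and support nothing about the list. Magea3 and Xlr were called with the block only. Xlr was 0.0743 and 0.105 RPKM against 0.493 and 0.687 (-1.85, adjusted p = 0.0584, blocked 0.0401). The Xlr3 and Xlr4 copies did not follow: Xlr4c was 0.498 and 0.321 RPKM against 0.410 and 0.389 (0.01, adjusted p = 0.993).

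Of 19 tested genes in a list of germline and 2-cell genes, 2 of them X-linked, 0 were called by limma and 2 were lower with the block, beside 1.02% of all genes. Their median was -0.28, and 15 were negative, beside 0.09 and 39.4% over all genes. Asz1, of the piRNA pathway, was 0.0675 and 0.178 RPKM in K754M and 0.770 and 1.01 in K754R. EloA WT, at 0.0938 and 0.0944, lay with K754M, and the difference was -2.18 ± 0.30 (adjusted p = 0.0612, blocked 0.0401). Sohlh2, a germ cell transcription factor, was 0.620 and 0.637 against 2.10 and 2.24 RPKM (-1.64, adjusted p = 0.0636, blocked 0.0465). The meiotic and germ cell genes Dazl, Ddx4 and Sycp3 had differences of -0.21, 0.22 and 0.58 and were not called with or without the block.

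None of the PRC2 genes was called. Ezh2, the catalytic subunit, was 5.48 and 4.66 RPKM in K754M against 5.55 and 4.94 in K754R (-0.05, adjusted p = 0.877). Eed, which binds the methylated histone, was 14.3 and 17.1 against 10.3 and 12.7 (0.45, adjusted p = 0.33), and Suz12, a scaffold subunit, was 8.31 and 9.19 against 11.7 and 12.3 (-0.45, adjusted p = 0.199). Of 10 PRC2 subunits and partners, 14 PRC2-bound developmental regulators and 22 Hox cluster genes tested, 0 passed limma without the block, with medians of 0.15, -0.02 and -0.03 beside 0.09 over all genes. With the block 1 of these 46 passed, a share near the 2.34% of all genes: Otx2, a homeobox gene on chromosome 14 (-0.96, adjusted p = 0.202, blocked 0.0430). Among 19 PRC1 genes, 3 passed with the block only, beside 2.34% of all genes. Kdm2b, which recruits PRC1 to CpG islands, was 1.81 and 1.74 against 0.914 and 0.878 RPKM (0.91, adjusted p = 0.0636, blocked 0.0401). Phc1, a Polyhomeotic subunit, had a difference of 0.62 (adjusted p = 0.0914, blocked 0.0485). Yaf2, a RING-binding subunit, was 0.927 and 0.788 against 1.96 and 1.69 RPKM (-1.01, adjusted p = 0.101, blocked 0.0401). Among 27 Elongin and elongation factor genes, 14 were positive and 13 negative, beside 60.5% and 39.4% of all genes. Of these 27, 0 were called with or without the block.

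Pluripotency genes showed no shared direction, with 12 of 26 tested rows of naive factors positive and 14 negative. The rows cover at most 25 factors, and 60.5% of all tested genes were positive and 39.4% negative. Pou5f1 was 20.5 and 36.5 RPKM in K754M and 15.0 and 19.8 in K754R, so its K754M replicates differed more than the groups (0.66, adjusted p = 0.33). Nanog was 18.0 and 20.1 against 23.3 and 24.2 RPKM (-0.32, adjusted p = 0.309), and Klf4 was 7.18 and 4.88 against 7.53 and 6.5 (-0.24, adjusted p = 0.607). With the block only, 1 of the 26 rows was higher and 1 lower, beside 1.33% and 1.02% of all genes. Nr0b1, an orphan receptor of the naive network, was higher (0.93, blocked adjusted p = 0.0401). Prdm14, a repressor of differentiation, was lower (-0.90, blocked 0.0470). Wnt pathway targets had 8 of 11 members negative and a median of -0.33, beside 39.4% and 0.09 over all genes. With the block 1 of the 11 was called lower, beside 1.02% of all genes. That member was the feedback inhibitor Axin2, at 0.457 and 0.536 against 0.896 and 1.30 RPKM (-0.99, adjusted p = 0.143, blocked 0.0479). Of 15 MAPK feedback genes, 10 were positive and 1, Etv4, was called higher with the block, beside 60.5% and 1.33% of all genes. Etv4 was 2.60 and 3.17 against 0.950 and 1.33 RPKM (1.28, adjusted p = 0.123, blocked 0.0401). Of 27 imprinted genes tested, 1 was called higher and 1 lower with the block, beside 1.33% and 1.02% of all genes. These were H19 and Sfmbt2, and no list was tested as a set. The imprinted Sfmbt2, a Polycomb-type MBT gene, was 0.519 and 0.415 against 1.74 and 1.09 RPKM (-1.39, adjusted p = 0.0980, blocked 0.0401). H19, an imprinted RNA, was 5.24 and 3.50 against 1.25 and 0.561 RPKM on 32 and 8 reads (2.21, adjusted p = 0.0831, blocked 0.0401).

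Lists of housekeeping genes moved by small amounts. Of 57 cytosolic ribosomal protein genes, 53 were positive with a median of 0.34, and 0 were called with or without the block, while 32 were higher in both K754M libraries. Of 25 cholesterol synthesis genes, 21 were negative with a median of -0.25, and 1, the desaturase gene Scd2, was called with the block (-0.81, adjusted p = 0.332, blocked 0.0455). Of 29 glycolysis and hypoxia genes, 20 were negative with a median of -0.33, but only 4 were lower in both K754M libraries. Over all tested genes 60.5% were positive and 39.4% negative. Both K754M libraries lay above both K754R libraries for 31.9% and below them for 18.6%, and 1.02% were called lower with the block. Ribosomal protein genes are short, with a median span of 3.57 kb, and short genes as a class were higher in K754M. The part of span in the ribosomal protein values was not tested.

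The difference fell with gene span. On the autosomes without chromosomes 4 and 14, a set chosen after seeing the data, the median was 0.32 (log2) in 2013 genes under 5 kb, 0.21 from 5 to 10 kb, 0.13 from 10 to 20 kb and 0.04 from 20 to 50 kb. It was -0.02 from 50 to 100 kb, -0.01 from 100 to 200 kb and -0.03 from 200 to 500 kb. All 4 pairings of libraries were positive in the bins under 50 kb, and the genes under 5 kb gave 0.23 to 0.36. The 68 genes of 500 kb or more gave -0.004 to 0.17, with both pairings of K754M replicate 2 above 0.1 and both of replicate 1 near 0. Spans are those of GENCODE M21 gene models, not of the introns counted.

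**Figure D5:**
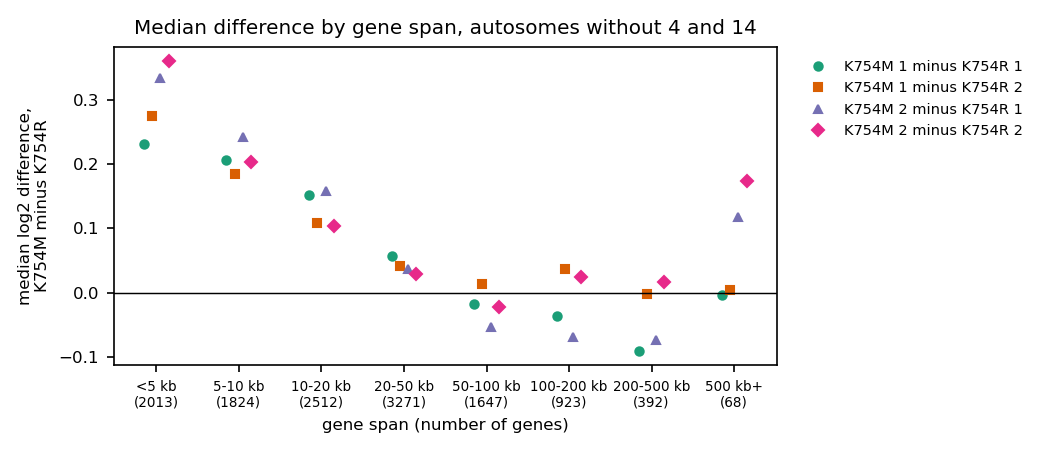
Median log2 difference (K754M minus K754R) by gene span on the autosomes without chromosomes 4 and 14, with the number of genes under each bin and 1 symbol per pairing of libraries. Medians run from 0.23 to 0.36 in genes under 5 kb and lie within 0.1 of 0 from 50 to 500 kb.

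The wild types did not side with one substitution throughout. Among the autosomal genes called higher in K754M with the block and at least 20 reads, EloA WT was nearer to K754M in 133 of 167, and CJ7 in 70. Among those called lower, EloA WT was nearer to K754M in 55 of 107 and CJ7 in 48. For comparison, of all 8767 autosomal genes with a positive difference, EloA WT was nearer to K754M in 6037 and CJ7 in 3355. Of the 5440 others, EloA WT was nearer to K754M in 2486 and CJ7 in 2957. EloA WT carries the line label CCE28 while the growth protocol names CJ7 cells for every sample, a conflict the labels do not settle, so line and genotype cannot be told apart there.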

How the data were processed

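Nascent RNA labelled with BrU was captured with an antibody and sequenced. The authors deposited intronic RPKM per gene, with 1 column for each Elongin A library and an average of 2 libraries for CJ7 wild type and Eed null. BWA and the mouse build mm9 are named in the submitters' processing notes; no counter, annotation or strand handling is named there. Members and gene lists were chosen with earlier results of these data known. Values were tested as log2(RPKM + 0.1), which understates changes of low genes, with limma 3.58.1 (R 4.3.3; variance trend; 3 groups of 2 libraries; Benjamini-Hochberg, 0.05) and checked on simulated data. Whole reads were recovered for 20817 of 20817 genes with at least 6 columns above 0 (100%; tolerance 0.01 read, up to 0.06 at high values; 0 of 300 jittered genes); voom on them called 443 genes. Chromosomes and spans came from GENCODE M21 by gene ID (14308), by symbol (435) or not at all (418). Deviations of same-numbered libraries correlated at 0.17, 0.20 and 0.15. With 2 libraries a group, such weak values do not settle whether replicate numbers pair the samples, and the labels do not say. The blocked fit is given where it changes a call. Named genes are the 12 (autosomes) or 6 (X and Y) largest called changes each way with no overlap, 0.5 RPKM and 20 reads in the higher group, passing over unnamed gene models (Gm, Rik and clone names), filled by smallest p, up to 4 per list, and 9 fixed genes. Results of a few genes are not reported here.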

Additional observations from a re-analysis of the deposited data

How the results depend on the processing

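Counts of calls changed with nearly every setting, and the causes were not tested. Genes higher and lower in K754M (17 and 27) became 10 higher with an offset of 0.5, 9 and 17 without a filter, 5 and 7 at a mean of 0.5 RPKM, 108 and 95 with at least 50 reads, 44 lower with equal autosomal medians, 29 and 61 after quantile normalization, 11 and 15 with the 4 mutant libraries alone, 204 and 239 with voom on recovered reads, and 9 and 8 without X, Y and chromosome 11. On autosomes (16 and 12) the counts were 7 lower at an offset of 0.01, 9 higher at 0.5, 8 higher without a filter, 4 and 4 at 0.5 RPKM, 104 and 65 with 50 reads, 26 lower with equal medians, 27 and 42 after quantile normalization, 10 and 6 with 4 libraries, 194 and 182 with voom, and 9 higher without X, Y and chromosome 11. The replicate block gave 201 and 154 over all genes and 186 and 115 on autosomes. With settings added after seeing the data, the block with equal medians gave 206 and 274 (autosomes 191 and 212), and the block in the 4 mutant libraries alone, where 1 residual degree of freedom is left, gave 2 and 2 (autosomes 2 and 1). Leaving out 1 library gave 1 to 53 higher and 1 to 11 lower over all genes, and 1 to 43 and 0 to 6 on autosomes; a lone library was then assumed to vary like the other groups. The X median less the autosomal median was -0.34, and -0.40 at an offset of 0.01, -0.22 at 0.5 and -0.19 without a filter. The 44 calls kept their direction in every setting that tested them. The mutants did not overlap for any of them, so a change of offset or filter, or leaving out 1 library, could not reverse it.

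Of 3019 comparisons of named genes with an alternative, 14 changed sign, all for genes that limma called neither with nor without the block. Leaving out 1 library in turn gave -0.164 to 0.0633 for Ezh2, -0.510 to 0.0364 for Klf4, -0.0889 to 2.50 for Hoxa2, -0.149 to 1.52 for Dppa5a, -1.01 to 0.0703 for Gbx2, -0.0669 to 1.26 for Atp5b, -0.453 to 0.155 for Nes, -0.00445 to 0.147 for Pax6 and -0.232 to 0.131 for Tubb3. The library whose removal changed the sign was K754M replicate 1 for Gbx2, K754R replicate 1 for Hoxa2, either K754M replicate 2 or K754R replicate 1 for Ezh2 and Nes, and K754M replicate 2 for the other 5. Pax6 was -0.00781 with equal medians, with or without the replicate block, and -0.122 after quantile normalization. Of the 44 calls between 2 libraries a side, 16 rest on under 20 reads in the higher group. Reads were not recovered for 1 gene called higher and 2 called lower.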

Other observations

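Some genes outside the lists were picked after their values were seen. Tspan2, a tetraspanin called with the replicate block only, was 0.162 and 0.184 against 0.868 and 0.877 RPKM (-1.84, adjusted p = 0.0541, blocked 0.0401). The gene models Gm7325 and Gm17153 were called without the block. Gm7325 was 6.65 and 7.17 against 1.91 and 1.66 RPKM on 40 and 13 reads (1.90, adjusted p = 0.0149). Gm17153 on chromosome 14 was 0.156 and 0.228 against 1.92 and 3.16 RPKM (-3.14, adjusted p = 0.0201).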
